A study of Mus musculus with 6 samples.

Results

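Integrins and the core proteins of focal adhesions were measured in endothelial cells of the mouse cerebellum, with and without the receptor Frizzled4. The group was fixed as a list of 37 genes: 25 integrin chains and 12 talins, kindlins and adhesion core proteins. A member was measured where the platform annotation assigned a probe set to its symbol alone, and its value was read from its brightest probe set over all arrays. That gave 34 of the 37 genes, out of 18193 genes in all. Itga11, Fermt1 and Ptk2 had no such probe set in the tables used here and were not analysed. The cells came from 16-day-old mice of either sex on a mixed C57Bl6/129 background and were captured with beads coated with an antibody to PECAM, an adhesion protein on the endothelial surface. One group was Fz4-/- and the other wild type, each with 3 preparations on 1 array apiece. The labels name no other allele and no treatment in either group, and they do not say which part of Fzd4 was deleted or whether animals were pooled. P-values therefore measure the spread between these 6 preparations.

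Integrins are receptors of 1 alpha and 1 beta chain that tie a cell to its matrix or to another cell. Talins and kindlins bind the beta chain's tail and switch the receptor on. Ilk with the parvins, vinculin and paxillin then join it to actin filaments. In brain vessels, receptors built on Itgb1 hold endothelial cells to the laminins and collagens of the basement membrane, and alphav-beta8 on neural cells activates TGF-beta for the growing vessels.

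All values are log2 RMA expression, in which 1 unit is a 2-fold step, and differences are Fz4-null minus wild type. Precision is limited by the small number of arrays. Their medians lay between 5.52 and 5.58 and their lower quartiles between 3.46 and 3.64. Levels are not ranked between genes, because probe sets differ in brightness for the same amount of RNA. Fzd4 itself read 10.80, 10.20 and 10.88 on the wild-type arrays and 3.04, 4.03 and 4.0 on the null arrays (limma adjusted p = 0.00965, and 0.127 with the replicate number as a block). All 16 pan-endothelial markers lay above the median level of all probe sets, and the mean of the list was 11.33, 11.36 and 11.52 on the wild-type arrays and 11.73, 11.60 and 11.65 on the null arrays. The null arrays were thus all above the wild-type arrays, with 13 of the 16 markers differing upwards (median 0.23). Of the 16, 3 had groups without overlap, where the share over all genes was 9.54%, and 0 passed the adjusted threshold (against 0.022%). The part of this shift in the differences of the members was not tested. Null replicate 1 stood apart in other cell types. Its mean was 5.55 for microglia and macrophage markers against 8.05 to 8.38 on the other arrays, 6.84 for fibroblast markers against 8.56 to 9.67, 6.93 for astrocyte markers against 8.28 to 9.09, and 9.12 for pericyte and smooth muscle markers against 10.06 to 10.59.

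None of the 34 measured members passed the test between genotypes. In limma, 0 of 34 passed an adjusted p of 0.05, where the share over all genes was 0.022%, and 2 of 34 had an unadjusted p under 0.05 (5.88%, against 4.6% of all genes). The median difference was -0.04 over the members and 0.01 over all genes, with 14 members above 0 and 20 below. The median size of a difference, whatever its sign, was 0.19 for the members and 0.17 for all genes. Only Itgb4 and Itgb6 had null arrays that did not overlap the wild-type arrays, which is 2 of 34 or 5.88%, against 9.54% of all genes. These shares are near the background. With the replicate number as a block, 0 of 34 members passed, as did 0 of all genes. Under that block 4 of 34 had an unadjusted p under 0.05, namely Itgb4, Itgb6, Itga10 and Itgb8 (11.8%, against 8.89% of all genes).

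A missed threshold does not show equal levels, so the width of each interval matters. For 17 of the 34 members, the 95% interval of the difference stayed within 1 log2 unit of 0, which leaves out a 2-fold change. Over all genes 67.4% of intervals did so. Those 17 were Itga1, Itga2, Itga2b, Itga3, Itga4, Itga6, Itgae, Itgam, Itgav, Itgb1, Itgb3, Itgb7, Fermt2, Fermt3, Parva, Vcl and Pxn. Among them Itga2, Itgae, Itgam and Itgb7 had levels below the median of all probe sets, where RMA can compress a difference. For the other 17 the interval reached beyond 1 log2 unit. Among them, the arrays of Itga5, Tln1, Ilk and Parvb were too scattered in the unpaired test to leave out a 2-fold change. In all of these the array numbered 3 was the highest of each genotype. By replicate number, Tln1 differed by 0.19, -0.19 and 0.05, and Parvb by 0.09, 0.12 and -0.19. No interval that takes out the step on the arrays numbered 3 is given. Itgb6 was not scattered (SE 0.19), and its interval reached beyond 1 because its difference was -0.86.

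**Figure D1:**
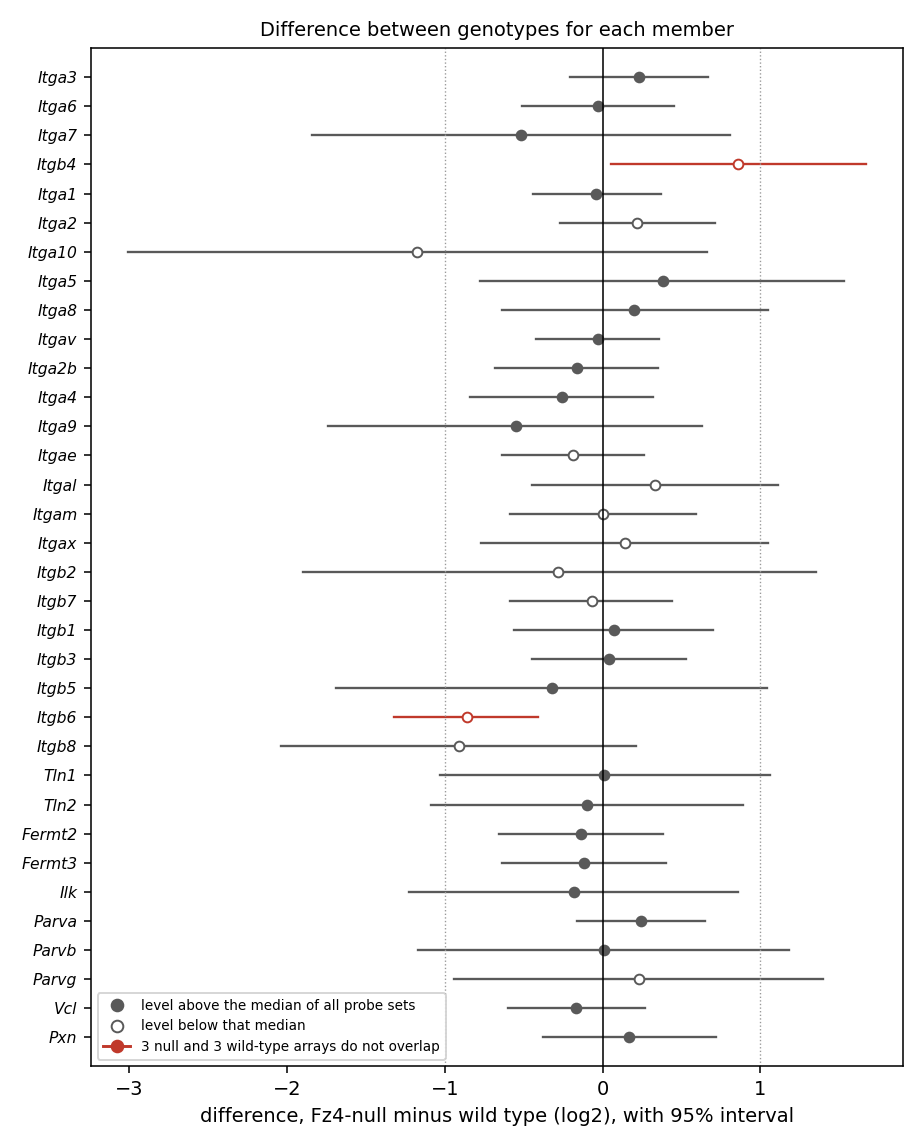
Difference between Fz4-null and wild-type arrays for each of the 34 members on the log2 scale (x axis), with its 95% interval from limma (3 arrays per genotype). Open points are members whose mean lies below the median level of all probe sets, and dotted lines mark a 2-fold change. Only the intervals of Itgb4 and Itgb6, drawn in red, do not reach 0, and neither passed the adjusted threshold.

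Itgb1, the beta chain shared by the laminin, collagen and fibronectin receptors, read 11.95, 12.01 and 11.30 in wild type and 12, 11.99 and 11.49 in the null arrays. The groups overlapped throughout, and the lowest array of each was the one numbered 3. The difference was 0.07 (SE 0.26, 95% interval -0.56 to 0.70, limma adjusted p = 1.0). Itgb1 has 6 probe sets, and their differences ran from -0.14 to 0.08. The interval of each included 0.

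The laminin-binding chains held 4 measured members. Itga6, which pairs with Itgb1 or Itgb4 to bind laminin, read 11.97, 11.86 and 11.51 in wild type and 11.94, 11.64 and 11.65 in the null arrays. The arrays of the 2 genotypes were interleaved, and the difference was -0.03 (SE 0.20, 95% interval -0.51 to 0.45). Itga3, another laminin receptor chain, read 8.45 ± 0.07 (SD, n = 3) in wild type against 8.68 ± 0.22 in the null group.

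Itgb4, whose long tail links laminin receptors to intermediate filaments in epithelia and which some endothelial cells carry, read 5.01, 4.12 and 4.78 in wild type and 6.04, 5.03 and 5.42 in the null arrays. The lowest null array lay just above the highest wild-type array. The difference was 0.86 (SE 0.34, 95% interval 0.05 to 1.67), a 1.82-fold higher level in the absence of Frizzled4, with limma adjusted p = 1.0. By replicate number it was 1.03, 0.91 and 0.64. Leaving out 1 array at a time gave 0.59 (without null replicate 1) to 1.09 (without null replicate 2). Itgb4 has 1 probe set, and its wild-type level lay below the array medians.

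Itga7, the laminin receptor chain of muscle, read 7.12, 7.17 and 8.15 in wild type and 5.76, 7.37 and 7.77 in the null arrays. Its only low value was null replicate 1. The difference was -0.52 (95% interval -1.84 to 0.81), and without that array it was 0.09.

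Of the collagen-binding alpha chains, Itga1 binds collagen IV and read 12.50, 12.44 and 12.24 in wild type against 12.35, 12.43 and 12.27 in the null arrays. Its groups overlapped, and its difference of -0.04 (SE 0.17, 95% interval -0.44 to 0.37) was one of 2 members' intervals to stay within 0.5 of 0, the other being that of Itgav. Itga2, a collagen receptor chain best known from platelets, read 3.49 ± 0.30 in wild type against 3.72 ± 0.08 in the null group, close to the lower quartiles, and is not shown to lie above background.

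Itga10, a collagen receptor chain best known from cartilage, had the largest difference of the 34 members with all 6 arrays. It read 5.04, 5.10 and 6.93 in wild type and 3.50, 4.01 and 6.02 in the null arrays. Each null array lay below the wild-type array of its number, yet null replicate 3 lay above wild-type replicates 1 and 2, so the groups overlapped. The difference was -1.18 (SE 0.77, 95% interval -3.01 to 0.66, limma adjusted p = 1.0), or -1.54, -1.09 and -0.91 by replicate number. With the replicate number as a block the adjusted p was 0.409. Single arrays moved the difference: leaving out wild-type replicate 3 gave -0.56, and dropping the third null array gave -1.93. When null replicate 1 was dropped, the difference was -0.67, and Itga9 (-1.02) and Itgb6 (-0.92) had larger ones. The level of Itga10 crossed the array medians only on both arrays numbered 3.

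The RGD-binding alpha chains recognise the Arg-Gly-Asp motif of fibronectin, vitronectin and related proteins. Itga5, which with Itgb1 forms the main fibronectin receptor of growing vessels, read 9.61, 9.82 and 11.19 in wild type and 10.47, 10.07 and 11.22 in the null arrays. Both arrays numbered 3 were high and matched each other, while the null arrays 1 and 2 lay above their wild-type counterparts by 0.86 and 0.25. The difference was 0.38 (SE 0.49, 95% interval -0.78 to 1.53), and without both arrays numbered 3 it was 0.55. It was 0.06 without null replicate 3 alone and 0.87 without wild-type replicate 3 alone. The 3 dimmer Itga5 probe sets read -0.08, 0.29 and 0.00.

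Itgav, the alpha chain that pairs with several beta chains, read 11.50, 11.43 and 11.30 in wild type and 11.32, 11.38 and 11.44 in the null arrays. Its 6 values spanned a narrow range with no separation, and the difference was -0.03 (SE 0.16, 95% interval -0.42 to 0.36). Its 4 dimmer probe sets ran from -0.45 to 0.16. Itga2b, the platelet fibrinogen receptor chain, read 6.41 ± 0.26 in wild type against 6.24 ± 0.22 in the null group (SD, n = 3). Platelet markers had a median difference of -0.28, and 7 of their 9 measured genes lay below the median level. Itga8, a chain of mesenchymal and smooth muscle cells, read 7.38, 7.33 and 7.52 in wild type and 6.80, 8.16 and 7.86 in the null arrays, a difference of 0.20 (95% interval -0.64 to 1.05).

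The beta partners of Itgav had a median difference of -0.59 over 4 members, with 0 passing the threshold. That median rested in part on single arrays, being -0.28 once null replicate 1 was dropped and -0.32 when wild-type replicate 3 was left out instead. Itgb6, a mainly epithelial chain that binds fibronectin and latent TGF-beta, had the lowest p of all members. It read 5.42, 5.08 and 5.19 in wild type and 4.47, 4.47 and 4.15 in the null arrays. All null arrays lay below all wild-type arrays, with a gap wider than the spread within either genotype. The difference was -0.86 (SE 0.19, 95% interval -1.32 to -0.41), a 1.82-fold lower level, with limma adjusted p = 0.720. It was between -0.61 and -1.04 by replicate number, and between -0.94 and -0.76 on leaving out 1 array at a time.

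The other Itgb6 probe set read 3.01, 3.15 and 2.70 in wild type and 2.58, 2.5 and 2.37 in the null arrays, also without overlap. All 6 of its values lay below the arrays' lower quartiles, and the brighter probe set lay below the array medians. Markers of choroid plexus, an epithelium, were lower on the same arrays. The mean of their 10 measured genes was 6.11, 5.91 and 8.22 in wild type and 5.02, 5.51 and 5.23 in the null arrays. All 10 differed downwards, and 7 of the 10 had groups that did not overlap, where the share over all genes was 9.54%. Its defining gene Ttr, the thyroid hormone carrier, read 12.54, 11.76 and 13.50 in wild type and 9.4, 10.52 and 10.45 in the null arrays. In tissue preparations, fewer cells of a type and less RNA per cell cannot be told apart, and the part of choroid plexus in the Itgb6 difference was not tested.

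Itgb8, which with Itgav activates TGF-beta from glia and neural progenitors, read 3.85, 3.93 and 4.97 in wild type and 2.43, 3.65 and 3.92 in the null arrays. The groups overlapped, and the lowest value was on null replicate 1. The means of all the non-endothelial marker lists were lowest there too, that of astrocytes among them. The part of any of these cells in the Itgb8 reading was not tested. The difference was -0.91 (SE 0.47, 95% interval -2.04 to 0.21, limma adjusted p = 1.0), and leaving out null replicate 1 gave -0.46. Its level lay below the array medians on all 6 arrays. Itgb5, a vitronectin receptor chain, had 4 probe sets with differences from -0.43 to -0.02. Itgb3, which pairs with Itgav on sprouting endothelium and with Itga2b on platelets, read 7.17 ± 0.07 in wild type against 7.22 ± 0.29 in the null group.

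Frizzled4 can act through beta-catenin and the TCF/LEF factors, whose sites can hold the core CTTTGA or, in longer form, CTTTGAT. The promoters of the members with the largest difference over all 6 arrays and the lowest p are therefore shown, each from 250 bases before to 50 bases after a RefSeq start, in build GRCm38.p6, with CTTTGA or its reverse complement TCAAAG in capitals. Itga10 lies at chr3:96645334-96645633 on the plus strand and Itgb6 at chr2:60722554-60722853 on the minus strand.
Itga10: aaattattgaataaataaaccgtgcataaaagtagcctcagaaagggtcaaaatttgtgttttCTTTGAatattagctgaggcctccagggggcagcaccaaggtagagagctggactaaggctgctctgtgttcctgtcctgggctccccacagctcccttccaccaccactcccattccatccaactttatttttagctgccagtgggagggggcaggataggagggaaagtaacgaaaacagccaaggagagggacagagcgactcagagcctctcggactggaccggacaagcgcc
Itgb6: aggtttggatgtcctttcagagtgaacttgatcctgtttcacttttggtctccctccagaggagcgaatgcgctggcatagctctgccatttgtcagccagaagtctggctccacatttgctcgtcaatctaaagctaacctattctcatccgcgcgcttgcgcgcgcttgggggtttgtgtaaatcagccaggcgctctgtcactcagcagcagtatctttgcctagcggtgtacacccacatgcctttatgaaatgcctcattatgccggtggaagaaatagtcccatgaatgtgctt
Itga10 holds the 6 letters at 1 place, starting 187 bases before the start site, and this Itgb6 window holds them nowhere. A second annotated Itgb6 start, not shown, does not hold them either. Of 24 measured members with a promoter in the table, 3 hold CTTTGA or its reverse complement, namely Itga1, Itga10 and Itgam. That is 3 of 28 promoter windows (10.7%), against 5257 of 32851 windows over all genes (16%). The longer CTTTGAT or ATCAAAG, which contains the shorter letters, is in 0 of the 28 windows and in 3.73% of all windows. A match in letters is not a bound site, and its absence says nothing about regions outside the window.

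Itga4 and Itga9 are chains that bind VCAM1, fibronectin's alternative segments and tenascin. Itga4 read 10.66 ± 0.30 in wild type against 10.4 ± 0.31 in the null group. Its difference of -0.26 (95% interval -0.84 to 0.32) came with -0.52, -0.51 and -0.30 at the next probe sets, and 0.06 at the remaining one, whose values lay below the lower quartiles. Itga9 gave opposite readings. Its brightest probe set read 6.26, 7.58 and 7.32 in wild type and 7.43, 5.93 and 6.14 in the null arrays, with a difference of -0.55 (SE 0.50, 95% interval -1.74 to 0.63). Null replicate 1 was high there and wild-type replicate 1 low, so the genotypes overlapped. The second probe set read 6.12, 6.43 and 6.43 in wild type and 7.07, 7.08 and 7.13 in the null arrays, which do not overlap, with a difference of 0.77 (SE 0.17, limma adjusted p = 0.744). The third read 0.09. No single direction can be given for Itga9.

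The leukocyte chains were dim. All 6 (Itgae, Itgal, Itgam, Itgax, Itgb2 and Itgb7) had a mean below the median level of all probe sets, and their differences ran from -0.28 to 0.33. Itgb2, the beta chain shared by Itgal, Itgam and Itgax, read 4.94, 5.90 and 5.99 in wild type and 3.83, 5.6 and 6.57 in the null arrays. It was lowest on null replicate 1 and highest on null replicate 3, so that the null arrays spanned the whole wild-type range. Itgax, a chain of dendritic cells and macrophages, read 4.19, 4.30 and 4.04 in wild type and 3.47, 5.01 and 4.47 in the null arrays. Itgam, the chain most used to mark microglia, read 3.69 in both groups (± 0.28 in wild type, ± 0.34 in the null group), near the lower quartiles on every array.

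Of the activators, Tln1, the talin of most tissues, read 9.31, 9.51 and 10.51 in wild type and 9.49, 9.32 and 10.56 in the null arrays. The array numbered 3 was the highest of each genotype by about the same step, and the groups matched. The difference was 0.01 (SE 0.44, 95% interval -1.03 to 1.06). Tln2, the talin of muscle and brain, read -0.10, Fermt2, the kindlin of adherent cells, read -0.14 (95% interval -0.66 to 0.38), and Fermt3, the kindlin of blood cells, read -0.12.

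In the adhesion core, Ilk, a pseudokinase scaffold at the beta chain's tail, read 9.94, 9.97 and 11.09 in wild type and 9.82, 9.72 and 10.90 in the null arrays. The arrays numbered 3 again lay above the rest in both genotypes. The difference was -0.18 (SE 0.44, 95% interval -1.23 to 0.86), and by replicate number it was -0.11, -0.24 and -0.19. Parva, the parvin that joins Ilk to actin, read 9.65 ± 0.12 in wild type against 9.89 ± 0.11 in the null group (SD, n = 3). Its dimmer probe set read -0.29 against 0.24 at the brighter one. Vcl, vinculin, which reinforces adhesions under tension, read 12.47 ± 0.19 and 12.30 ± 0.12, and Pxn, paxillin, an adaptor for signalling proteins, read 11.71 ± 0.34 and 11.88 ± 0.18, in each case wild type first. Parvb differed by 0.01, while its dimmer probe set, below the median level, read -0.64 (95% interval -1.57 to 0.28). Parvg, the parvin of blood cells, read 4.68, 5.45 and 5.54 in wild type and 4.44, 5.61 and 6.31 in the null arrays, which spanned the wild-type range. Its difference was 0.23, but it became 0.74 when null replicate 1 was dropped and -0.20 when the third null array was.

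**Figure D2:**
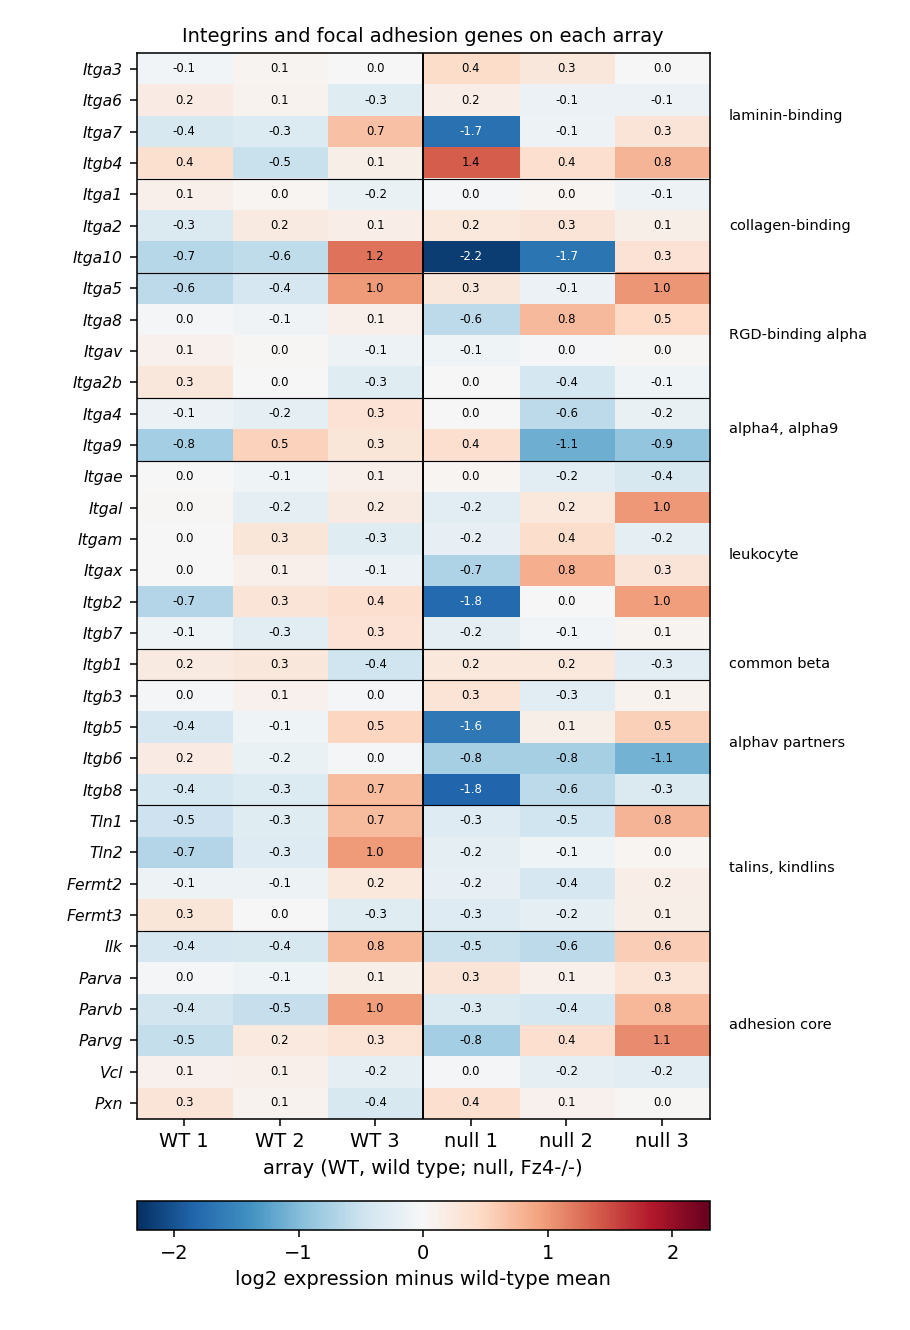
Log2 expression of each of the 34 members on each of the 6 arrays (columns), given as the distance from that member's wild-type mean, with genes grouped by role (rows). Itgb6 is below its wild-type mean on all 3 null arrays, by 0.8 to 1.1, while Itga7, Itga10, Itgb2, Itgb5 and Itgb8 are lowest on null replicate 1, and Itga5, Tln1, Ilk and Parvb are high on both arrays numbered 3.

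Several members stood apart on the arrays numbered 3 in both genotypes. On those arrays, 9 of 34 members lay over 0.5 above the mean of arrays 1 and 2 in both genotypes (26.5%, against 13.0% of all genes), and 0 of 34 lay over 0.5 below it in both (against 6.18%). The 9 were Itga5, Itga7, Itga10, Itgb2, Itgb5, Itgb8, Tln1, Ilk and Parvb. Parvb, for example, was higher by 1.44 in wild type and by 1.14 without Frizzled4, Ilk by 1.14 and 1.13, and Tln1 by 1.10 and 1.15. Itgb1 went the other way, at -0.67 and -0.50, the second of which did not pass the 0.5 cut. These steps were larger than the genotype differences of Itga5, Tln1, Ilk and Parvb, whose intervals were wide. The counts rest on the brightest probe set of each member, and dimmer probe sets moved in both directions. The second Itga5 probe set stood at -1.19 in wild type and -1.0 without Frizzled4, and the second Vcl probe set at -2.4 and -2.01. The second Parva probe set stood at 1.48 and 1.73. The brightest Itga5 probe set stood at 1.48 and 0.95, so no single direction on the arrays numbered 3 can be given for Itga5. The brightest Vcl probe set was lower there too, at -0.33 and -0.12. The brightest Parva probe set was higher there too, at 0.2 and 0.1. For Vcl and Parva the direction was thus shared and the size was not. The labels give no batch, scan time or litter for the replicate numbers.

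**Figure D3:**
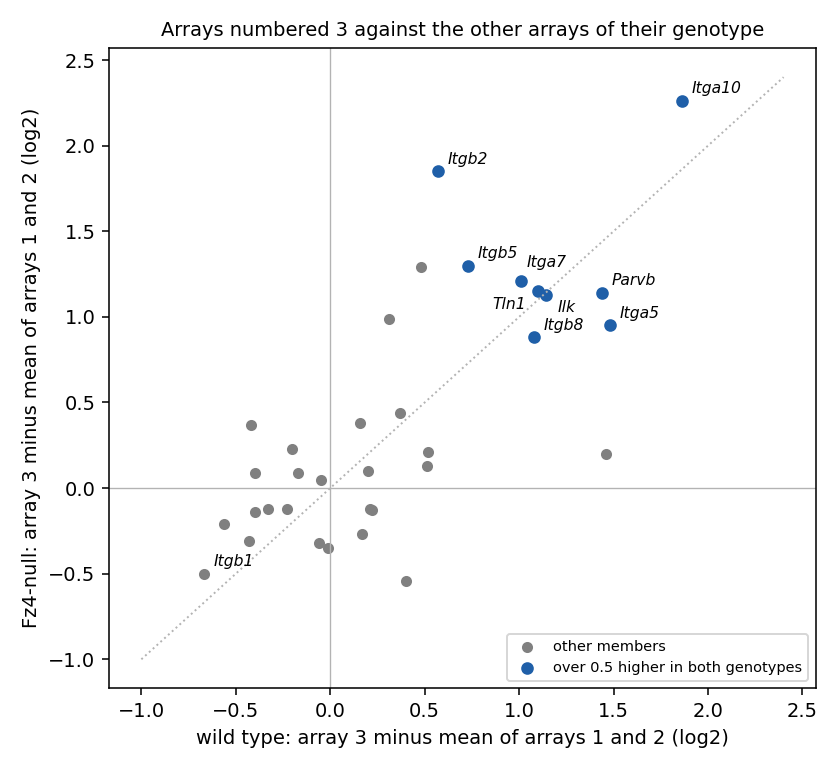
For each of the 34 members, the value on the array numbered 3 minus the mean of arrays 1 and 2 of the same genotype, in wild type (x axis) and in the Fz4-null group (y axis), both in log2 units. The 9 members in blue are over 0.5 higher in both genotypes and Itgb1 is lower in both.

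On null replicate 1, 7 of 34 members lay over 0.5 below every other array (20.6%, against 4.82% of all genes). They were Itga7, Itga8, Itga10, Itgax, Itgb2, Itgb5 and Itgb8. Itgb5 read 6.87 there, against 8.66 and 9.06 on the other null arrays and 8.13 to 9.01 in wild type. Itgb2 lay 2.25 and Itga7 1.81 below the mean of the other null arrays. Without that array the differences of these 7 ran from -0.67 to 0.61, with Itga8 at 0.61, Itgax at 0.56, Itgb2 at 0.47, Itgb5 at 0.34, Itga7 at 0.09, Itgb8 at -0.46 and Itga10 at -0.67. Microglial, fibroblast, astrocyte and mural markers were lowest on the same array, as given above. So were the means of the platelet (4.05), lymphocyte and neutrophil (4.13), oligodendrocyte (4.59), neuron (4.58) and choroid plexus (5.02) markers. By contrast, the pan-endothelial mean there, 11.73, was the highest of the 6. The part of these cells in the 7 low readings was not tested.

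**Figure D4:**
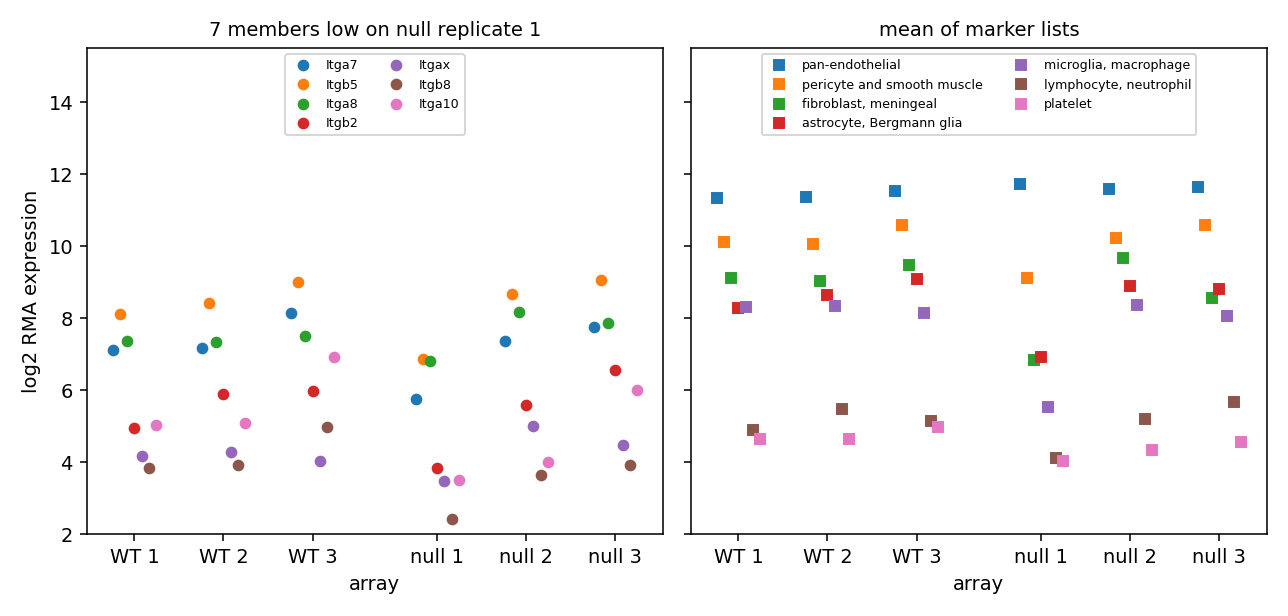
Left, log2 expression of the 7 members that lie over 0.5 below every other array on null replicate 1; right, the mean log2 expression of 7 marker lists, on each wild-type (WT) and null array (x axis, points of an array set side by side). On null replicate 1, microglia and macrophage markers read 5.55 and fibroblast markers 6.84, below the other 5 arrays, while pan-endothelial markers read 11.73.

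Other genes of the pathway gave 0 calls, where the share over all genes was 0.022%. The median difference of 28 measured adaptors and kinases of focal adhesions was 0.05. In limma 0 of them passed and 1 had an unadjusted p under 0.05, where the share over all genes was 4.6%. That gene was Src, the kinase that works with focal adhesion kinase, which read 6.81, 7.05 and 7.37 in wild type and 6.29, 6.56 and 6.59 in the null arrays, without overlap (-0.60, SE 0.21, limma adjusted p = 1.0). Next by p were Tns3, a tensin (-0.45), and Nck1, an adaptor (0.32), whose groups overlapped. Tns3 read 8.61 on null replicate 1 against 9.57 or more on the other 5 arrays, and without that array its difference was -0.07. Of 16 regulators of integrin activity, 0 passed and 0 had an unadjusted p under 0.05, with a median of 0.12. Rasgrp2, an exchange factor for Rap1, read 7.46, 7.95 and 8.22 in wild type and 8.25, 8.44 and 8.64 in the null arrays (0.57, SE 0.25, limma adjusted p = 1.0). These arrays separated by a narrow margin. The small GTPases Rras (0.31) and Rap1a (0.27) followed.

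The median difference of 35 measured integrin ligands was 0.04. Of these, 0 passed (against 0.022% of all genes) and 1 had an unadjusted p under 0.05 (against 4.6%). That gene was Hspg2, perlecan, a proteoglycan of the basement membrane, which read 10.06, 9.96 and 10.73 in wild type and 11.04, 10.71 and 11.21 in the null arrays. Wild-type replicate 3 reached the null range, and the difference was 0.73 (SE 0.27, 95% interval 0.10 to 1.37, limma adjusted p = 1.0). The fibrinogen chain Fgg (-0.55) was dim, and Ccn2, a matrix protein that binds integrins, differed by 0.32, both without overlap between groups. Over these 3 lists, 79 genes were measured and 4 had groups that did not overlap, where the share over all genes was 9.54%.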

How the data were processed

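Total RNA from 3 Fz4-null and 3 wild-type preparations was biotin-labelled for Affymetrix 3' arrays. The authors deposited log2 values made with RMA, per the submitters' processing notes, and its version was not stated. Of 45101 probe sets, 64 controls were left out and 45037 tested. By platform annotation 34945 had 1 symbol, 932 several and 9160 none, and RefSeq (GRCm38.p6) identifiers matched 34741. Each gene took its brightest probe set over 6 arrays among those with 1 symbol. Depth does not apply to arrays. No pair of arrays shared over 0.351% identical values.

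Genotypes were tested with limma 3.58.1 under R 4.3.3 (lmFit, eBayes without trend, no covariate), two-sided, adjusted by Benjamini-Hochberg over all 45037 probe sets. Intervals are moderated 95% intervals. The code was tested on simulated data. Replicate numbers run from 1 to 3 in both genotypes. Deviations from group means correlated at 0.244, 0.303 and 0.574 for like numbers, all over 0.1, and for unlike numbers at up to 0.262. The labels do not say what a number shares. The reported test is unpaired, and the replicate block was an alternative, as were other normalizations, filters, variance estimates, probe set rules, thresholds and leaving out each array. A batch term for the arrays numbered 3 and leaving out both were added after seeing the data.

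The members, lists and motif were chosen with earlier results of these data known. All 6 values are given for members past the threshold or without overlap, the 5 largest differences, and Itgb1, Itga5, Itga6, Itgav, Tln1, Ilk and Ptk2 where measured, and of other lists up to 3 genes by lowest p. Itga1, Itga7, Itga8, Itgax, Itgb2, Itgb5, Parvg and the 0.5 distance for single arrays were added after values were seen. Figures were drawn with matplotlib 3.10.9.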

Additional observations from a re-analysis of the deposited data

How the results depend on the processing

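The count of members past the threshold was 0 with all 6 arrays and stayed 0 under each of the 18 other settings and at an adjusted p of 0.1. Under some settings 0 of all 18193 genes passed, so a count of 0 members says nothing there. These were the unmoderated statistic, the replicate block and leaving out both arrays numbered 3. Leaving out null replicate 2 or 3, or wild-type replicate 1 or 2, did the same. The lowest adjusted p of any member ran from 0.314 (Itga10, with a batch term for the arrays numbered 3) to 1.0. Members with an unadjusted p under 0.05 numbered 0 to 4. The replicate block gave 0 past the threshold and 4 at an unadjusted p under 0.05, namely Itgb4, Itgb6, Itga10 and Itgb8 (11.8% of members, against 8.89% of all genes). Fzd4 itself missed the threshold under the block (limma adjusted p = 0.127), so the unchanged count of 0 does not show stability. The median member difference, -0.0354, kept within its spread of 0.147 over the null arrays, from -0.0665 (mean of all probe sets of a gene) to -0.0323 (median-centred arrays) under settings with all 6 arrays. Leaving out 1 array gave -0.136 (without null replicate 3) to 4.84e-05 (without null replicate 1). Differences of uncalled members changed sign in up to 8 of 34 members under one setting. Among members over 0.5 in size this happened to Itga7 without null replicate 1 and to Itga9 with the mean of its probe sets. Of the 23 members with several probe sets, 12 had probe sets whose differences had opposite signs. Filters on dim probe sets left 22 members (at the median level) and 21 (at log2 of 100), without Itgb4 and Itgb6. Signal near background limits what can be said of the 12 members below the median level.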
